A study of Rattus norvegicus with 16 samples.

Results

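The genes described here are the desaturases Fads1 and Fads2 and the elongases Elovl1, Elovl2 and Elovl5, taken by symbol from a rat liver gene table. They are 5 of its 17168 genes, and all 5 passed the filter on low counts that left 11162 genes for testing. RNA was sequenced from livers of Sprague Dawley rats that carried a Tspo knockout or were wild type. Tspo codes for the translocator protein, which sits in the outer membrane of mitochondria. The 16 libraries form 4 groups of 4, named here KO on MCD, WT on MCD, KO on chow and WT on chow. KO stands for the label Tspo -/- and WT for wild type. MCD is a methionine- and choline-deficient diet, which was fed to induce steatohepatitis, and chow is the ordinary diet. Each diet began at 12 weeks of age and ran for 8 weeks, so all animals were 20 weeks old at sampling. Which part of Tspo was deleted is not stated. No label ties each library to its own animal, so p-values measure the spread between libraries.

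Long polyunsaturated fatty acids are made in the endoplasmic reticulum by turns of desaturation and elongation of dietary linoleic and alpha-linolenic acid. Fads2 places the first new double bond, Elovl5 lengthens the product, Fads1 places the next double bond and yields arachidonic and eicosapentaenoic acid, and Elovl2 lengthens these further on the way to docosahexaenoic acid. Elovl1 is known mainly for lengthening saturated and monounsaturated acids to very long chains. In liver, transcription of the desaturases is known to respond to the sterol-regulatory element factor Srebf1 and to the fatty acid receptor Ppara.

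In the RefSeq assembly GRCr8 the coding genes Fads3, Fads2 and Fads1 are neighbours on chromosome 1, and the starts of Fads1 and Fads2 point in opposite directions. The 250 bases before the start of 4 of the genes are printed because Fads1 and Fads2 varied together between libraries and Elovl5 with each of them, a relation not found for Elovl1. Elovl2 also varied with both desaturases, and its windows are described by their motifs alone. They lie at chr1:216252442-216252691 (plus strand) for Fads1, chr1:216172034-216172283 (minus strand) for Fads2, chr8:87670914-87671163 (plus strand) for Elovl5 and chr5:137247905-137248154 (plus strand) for Elovl1. Each is written 5′ to 3′ on the strand of its gene. Capitals mark matches to the motifs searched on either strand.
Fads1: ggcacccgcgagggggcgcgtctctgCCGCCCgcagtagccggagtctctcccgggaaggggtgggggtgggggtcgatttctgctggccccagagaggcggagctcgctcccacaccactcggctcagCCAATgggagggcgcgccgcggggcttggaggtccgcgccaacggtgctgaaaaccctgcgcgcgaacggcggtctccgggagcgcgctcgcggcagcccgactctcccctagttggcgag
Fads2: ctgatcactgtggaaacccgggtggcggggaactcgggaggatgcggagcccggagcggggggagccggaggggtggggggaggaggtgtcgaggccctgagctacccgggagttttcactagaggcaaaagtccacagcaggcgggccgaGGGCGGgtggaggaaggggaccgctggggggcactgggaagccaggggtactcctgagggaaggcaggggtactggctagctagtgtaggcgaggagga
Elovl5: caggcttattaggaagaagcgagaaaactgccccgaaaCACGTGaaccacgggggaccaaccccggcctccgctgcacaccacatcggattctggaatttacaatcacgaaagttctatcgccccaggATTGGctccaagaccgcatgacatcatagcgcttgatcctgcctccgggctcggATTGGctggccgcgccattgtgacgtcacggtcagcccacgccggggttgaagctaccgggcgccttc
Elovl1: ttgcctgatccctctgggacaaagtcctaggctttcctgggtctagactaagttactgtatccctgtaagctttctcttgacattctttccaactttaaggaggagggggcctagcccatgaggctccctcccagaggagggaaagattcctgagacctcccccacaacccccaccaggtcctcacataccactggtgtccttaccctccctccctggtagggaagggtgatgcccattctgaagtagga
The motifs were the CCAAT box (CCAAT), the GC box (GGGCGG), the E-box (CACGTG), a sterol regulatory element (TCACNCCAC) and a direct repeat of the nuclear receptor site, the kind Ppara binds, where N is any base. Fads1 held 1 CCAAT box, whose first base lies at -121 from the start, and 1 GC box on the opposite strand at -224. Fads2 held 1 GC box at -99 and no CCAAT box. Elovl5 held 2 CCAAT boxes on the opposite strand, at -122 and -68, and 1 E-box at -212. The Elovl1 window held none of the 5 motifs. Of 33360 windows of this length, 34.0% held a CCAAT box, 30.5% a GC box, 5.61% an E-box, 0.977% the sterol regulatory element and 0.051% the direct repeat. The last 2 motifs were in none of the 4 windows printed nor in the 2 windows listed for Elovl2, which held 7 and 1 GC boxes. GC content was 73.2% for Fads1, 68.0% for Fads2, 59.2% for Elovl5, 54.0% for Elovl1 and 86.8% and 80.8% for the windows of Elovl2. The matches describe these letters and were not tested as binding sites.

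Library totals were 10749769 to 15347832 counts for KO on MCD, 10931113 to 15762650 for WT on MCD, 11330033 to 12521178 for KO on chow and 8745756 to 12896848 for WT on chow. The 5 genes had between 278 and 19620 counts in each library. For Elovl1, with 278 to 1284 counts, counting error is not small beside the spread within WT, where its CV was 2.77% on MCD and 8.25% on chow. Tspo, the targeted gene, was at 2.02 ± 1.46 CPM (the usual scaling of counts to a common library total, with TMM factors, used for all levels here) in KO and 8.42 ± 0.779 in WT on MCD, and at 1.87 ± 1.72 in KO and 4.25 ± 0.728 in WT on chow (SD, n = 4 each). The library labelled KO on chow number 4 had 4.42 CPM of Tspo, inside the range of WT on chow, and the library labelled KO on MCD number 1 had 4.17 CPM. Both libraries stood apart on the second principal component (16.1% of the variance), at 63.74 and 44.2, as did WT on chow number 4 at 32.95. The other 13 libraries were between -43.18 and 9.12, where the lowest were WT on chow numbers 3 (-43.18), 1 (-38.42) and 2 (-24.81), so WT on chow was itself spread widely. Directions given for KO rest on groups that hold the libraries in doubt, and results are also given without them where that changes a call.

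Cell type markers moved with the diet. The 9 hepatocyte markers summed to 103610 to 125700 CPM in KO and 97890 to 136980 in WT on MCD, and to 180070 to 237610 in KO and 170300 to 210780 in WT on chow. In each genotype 4 of the 9 fell on MCD, 0 rose and 5 were not called. The 3 bile duct markers in the table summed to 72.7 to 114 CPM in KO and 69.6 to 127 in WT on MCD, and to 16.2 to 29.9 in KO and 16.3 to 36.1 in WT on chow. The 6 stellate markers summed to 101 to 220 CPM in KO on MCD and 136 to 359 in WT on MCD, against 80.4 to 92.7 in KO on chow and 92.0 to 135 in WT on chow. By gene, 2 of the 6 rose on MCD in KO and 1 in WT, and 0 fell. In each genotype 2 of the 3 bile duct markers rose and 0 fell. Of the 6 macrophage markers 1 rose and 2 fell in each genotype, and they summed to 234 to 389 CPM in KO on MCD and 191 to 310 in WT on MCD, against 396 to 622 in KO on chow and 312 to 487 in WT on chow. Red cell markers summed to 93.2 to 132 CPM in KO on MCD and 76.8 to 218 in WT on MCD, against 454 to 4531 in KO on chow and 959 to 1414 in WT on chow. Endothelial markers ranged from 107 to 219 CPM over all libraries, lymphocyte markers from 1.46 to 3.96, pancreas markers from 1.11 to 9.31 and fat markers from 0 to 0.134, with Prss1 and Lep at 0 in every group. The part of these shifts in the diet results was not tested, and in bulk tissue fewer cells of a type and less RNA per cell cannot be told apart.

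The first question was how the levels of the 5 genes vary over the 16 libraries. Fads1 had 526, 567, 515 and 1083 CPM in the 4 libraries of KO on MCD and 760.2, 364, 744 and 729.8 in WT on MCD, against 1119, 1264, 1329.8 and 581 in KO on chow and 895, 1010.2, 559.7 and 588 in WT on chow. KO on chow held the 3 highest libraries, but its number 4 lay with the lower ones, and KO on MCD held 3 low libraries and 1 high one. Fads2 had 438, 445, 380.1 and 954 CPM in KO on MCD and 656, 282, 656 and 539.6 in WT on MCD, against 942, 1101, 1089 and 417 in KO on chow and 720.5, 778, 484 and 443 in WT on chow. The same libraries were high and low for both desaturases, and the 4 groups overlapped for each.

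Elovl5 had 64.4, 95.9, 69.8 and 108 CPM in KO on MCD and 80.1, 78.1, 118 and 65.6 in WT on MCD, against 111, 146, 159.9 and 55.0 in KO on chow and 117, 124, 40.2 and 106 in WT on chow. Its lowest libraries were number 3 of WT on chow and number 4 of KO on chow, and again all groups overlapped. Elovl2 had 64.7, 46.5, 57.1 and 74.7 CPM in KO on MCD and 64.7, 43.7, 44.1 and 50.6 in WT on MCD, against 99.1, 80.05, 64.8 and 56.8 in KO on chow and 74.6, 72.5, 51.1 and 45.9 in WT on chow. Elovl1 had 78.6, 64.2, 53.0 and 54.8 CPM in KO on MCD and 57.8, 56.6, 58.5 and 60.5 in WT on MCD, against 46.0, 57.0, 52.5 and 51.7 in KO on chow and 46.5, 48.9, 40.2 and 44.4 in WT on chow. For Elovl1 all 4 libraries of WT on MCD lay above all 4 of WT on chow, while the diets overlapped in KO.

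**Figure D1:**
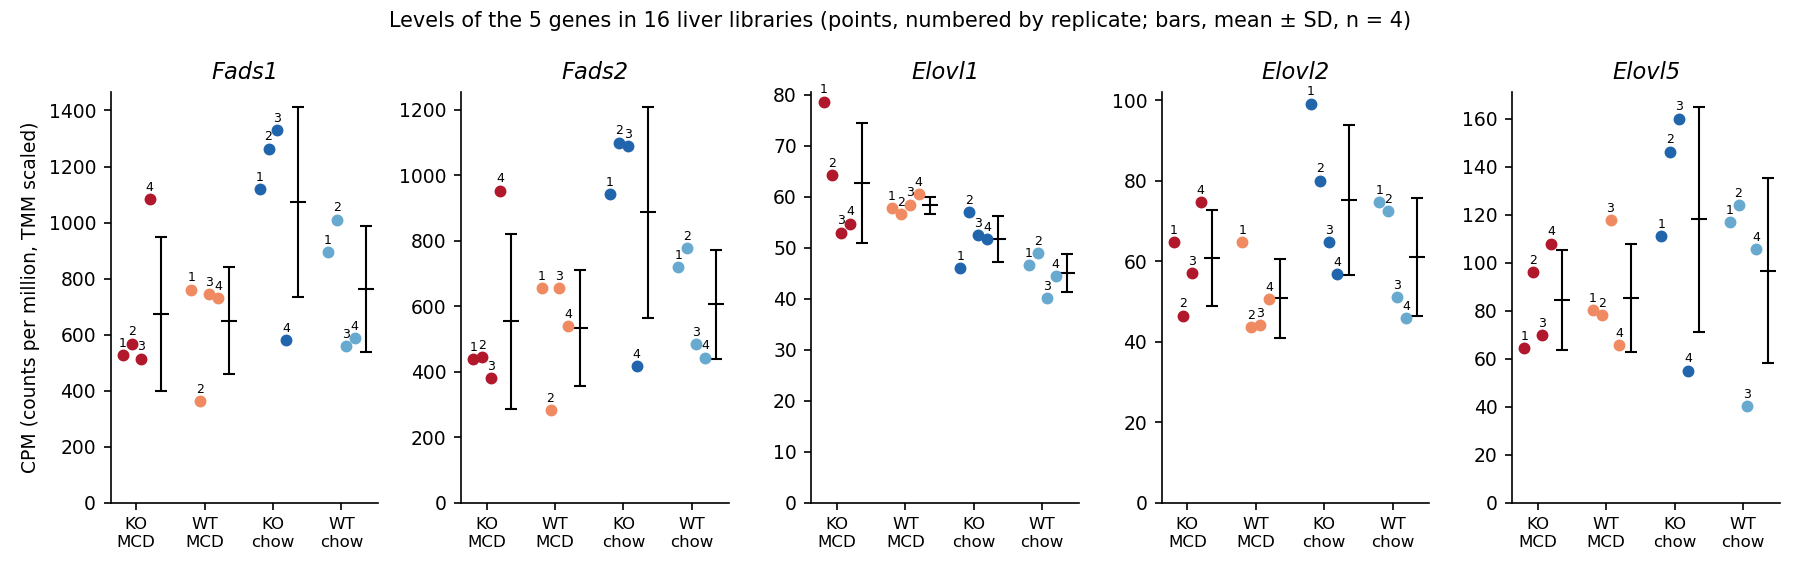
CPM of Fads1, Fads2, Elovl1, Elovl2 and Elovl5 on a linear axis from 0, with 1 point per library numbered by its label and the mean ± SD of each group (n = 4) beside it. KO on MCD number 4 is far above the other 3 libraries of its group for Fads1 and Fads2, and KO on chow number 4 lies below the other 3 of its own.

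Ordered by group mean, Fads1 ran from KO on chow (1074 ± 340 CPM) over WT on chow (763 ± 224) and KO on MCD (673 ± 275) to WT on MCD (649.5 ± 191; SD, n = 4 each). Fads2 followed the same order, at 887 ± 321, 606 ± 167, 554 ± 268 and 533 ± 176 CPM. Elovl2 did too, with group means of 75.2 ± 18.7 CPM in KO on chow, 61.0 ± 14.7 in WT on chow, 60.7 ± 11.9 in KO on MCD and 50.8 ± 9.83 in WT on MCD. Elovl5 averaged 118 ± 46.8 CPM in KO on chow, 96.7 ± 38.4 in WT on chow, 85.4 ± 22.5 in WT on MCD and 84.5 ± 20.8 in KO on MCD. Elovl1 was higher on MCD than on chow in each genotype's mean and, as for the desaturases, higher in KO than in WT on each diet, with 62.7 ± 11.8 CPM in KO on MCD, 58.3 ± 1.61 in WT on MCD, 51.8 ± 4.51 in KO on chow and 45.0 ± 3.71 in WT on chow. In every one of these orders the ranges of neighbouring groups overlapped.

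Over all 16 libraries the highest value was 3.66 times the lowest for Fads1, 3.904 times for Fads2, 3.98 times for Elovl5, 2.27 times for Elovl2 and 1.96 times for Elovl1. The biological coefficient of variation, the spread within groups estimated by edgeR, was 33.1% for Fads1, 36.2% for Fads2 and 34.5% for Elovl5. It was 23.0% for Elovl2 and 16.1% for Elovl1, against a median of 23.97% over the genes tested. Both desaturases and Elovl5 thus varied more within a group than the median gene, and Elovl1 varied less.

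The next comparison asked what the MCD diet did in KO livers. None of the 5 genes passed the test in KO, while 40.4% of all genes tested did (4514 of 11162; edgeR's quasi-likelihood test with Benjamini-Hochberg adjustment over all genes, threshold 0.05). By edgeR and by limma 0 of the 5 were under an unadjusted p of 0.05, and by DESeq2 2 were, with 0 called by either of the other tools. Of all 11162 genes, 5544 (49.7%) were under it by edgeR, 5510 by limma and 5675 by DESeq2. Fads1 had a log2 fold of MCD over chow of -0.67 ± 0.32 (SE; 95% interval -1.36 to 0.01; adjusted p = 0.107) and Fads2 of -0.68 ± 0.36 (-1.44 to 0.08; adjusted p = 0.140). For Elovl5 it was -0.48 ± 0.34 (-1.21 to 0.24; adjusted p = 0.270), for Elovl2 -0.31 ± 0.22 (-0.77 to 0.15; adjusted p = 0.267) and for Elovl1 0.27 ± 0.14 (-0.02 to 0.57; adjusted p = 0.126). The median of the 5 was -0.48, against 0.04 over all genes, and the median size of a change over all genes was 0.54. All 5 genes had libraries of the 2 diets that overlapped in KO, where 31.6% of all genes had none (17.6% higher on MCD and 14% lower).

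The desaturase values in KO turned on the libraries numbered 4. Without KO on MCD number 4, Fads1 fell by 1.00 on the log2 scale (adjusted p = 0.0280) and Fads2 by 1.07 (adjusted p = 0.0295) by the same edgeR test. Without the library labelled KO on chow number 4, Fads1 fell by 0.88 (adjusted p = 0.0357) and Fads2 by 0.91 (adjusted p = 0.0431). Leaving out 1 of the other KO libraries gave no call, at log2 folds of -0.65 to -0.54. Without both KO libraries with high Tspo, Fads1 stood at -0.78 (adjusted p = 0.0642) and Fads2 at -0.82 (adjusted p = 0.0746). Over all 19 alternatives the adjusted p ranged from 0.00488 to 0.936 for Fads1 and from 0.00380 to 0.951 for Fads2, and each was called in 3. Elovl1 in KO was 0.15 without the library labelled KO on MCD number 1, its highest.

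In WT livers the MCD diet raised 1 of the 5 genes, Elovl1, while 18.2% of all genes tested were called upward and 34.1% in either direction. Elovl1 was 29.6% higher on MCD, with a log2 fold of 0.37 ± 0.14 (95% interval 0.08 to 0.67; adjusted p = 0.0489) and no overlap between the diets. Without overlap in WT were 38% of all genes, 20.1% upward and 18% downward, and 60% of all genes had a larger fold than Elovl1. The call did not survive the loss of any 1 library. In all 8 such fits the adjusted p by edgeR's quasi-likelihood test was 0.0581 to 0.121, with log2 folds of 0.32 to 0.42. The rise was positive in all 19 alternatives, at adjusted p of 0.000575 to 0.121, and 7 of them called it. The lowest adjusted p came from the fit without scaling factors, where the median of all genes was 0.53 and Elovl1 lay 0.37 above it.

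The other 4 genes did not pass in WT. Fads1 had a log2 fold of -0.23 ± 0.32 (95% interval -0.92 to 0.45; adjusted p = 0.602) and Fads2 of -0.19 ± 0.36 (-0.94 to 0.57; adjusted p = 0.713). Elovl2 had -0.27 ± 0.22 (-0.73 to 0.19; adjusted p = 0.356) and Elovl5 -0.18 ± 0.34 (-0.90 to 0.54; adjusted p = 0.706). The median of the 5 genes was -0.19, against -0.0022 over all genes and a median size of change of 0.49. For Fads2 the sign turned to 0.03 without WT on MCD number 2, its lowest library.

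**Figure D2:**
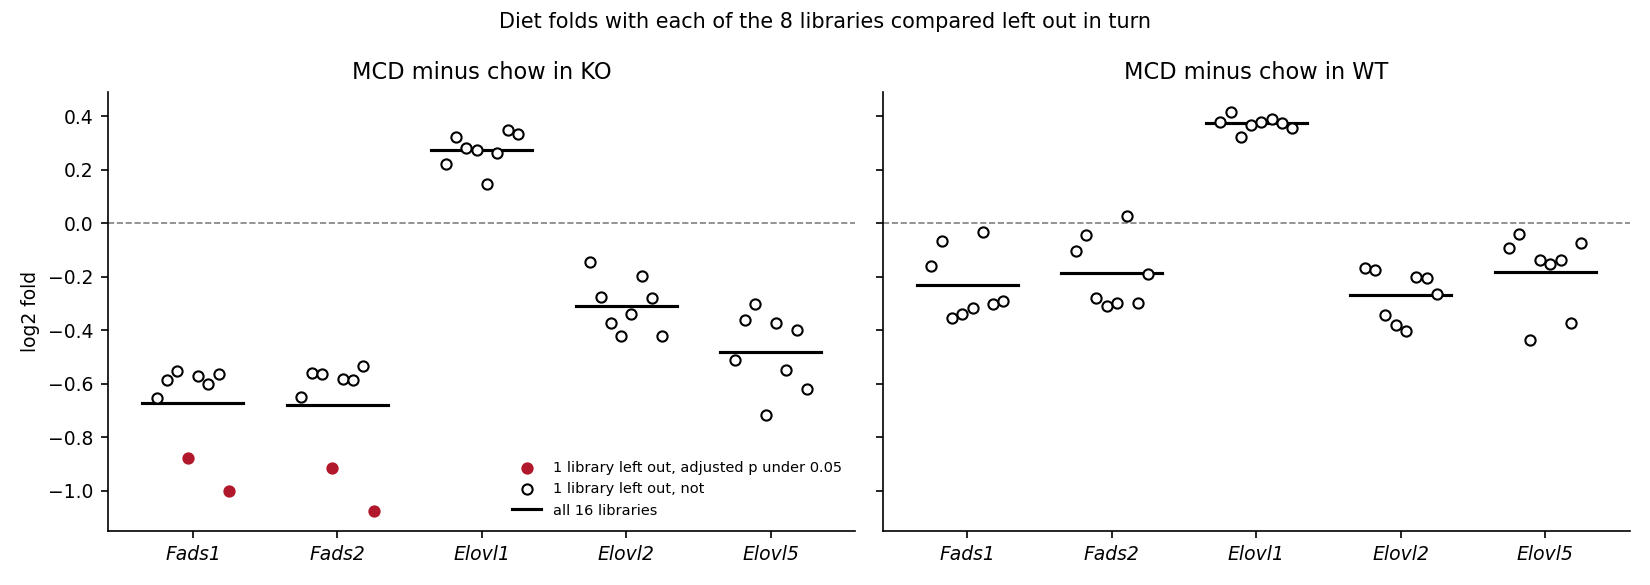
Log2 folds of MCD over chow in KO (left) and WT (right), where lines are the values with all 16 libraries and points the values with 1 of the 8 compared libraries left out. Red points passed an adjusted p of 0.05, and the only ones are Fads1 and Fads2 in KO without KO on MCD number 4 or KO on chow number 4.

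The libraries were also scaled in other ways. Without scaling factors the median of all genes moved to 0.77 in KO and 0.53 in WT on the log2 scale, and Fads1, Fads2, Elovl2 and Elovl5 turned positive in both genotypes, so their negative signs hold only relative to the bulk of genes. Elovl1 stayed positive under every scaling. With upper quartile factors it was also called in KO, at 0.38 (adjusted p = 0.0394).

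The KO was then compared with WT on each diet. On chow 0 of the 5 genes passed, beside 0.00896% of all genes tested, which is 1 gene (LOC500124, lower in KO and named after its values were seen). Without the 3 libraries that stood apart 516 genes were called, and with 1 library left out 0 to 17, with 0 of the 5 called in each. By edgeR 0 of the 5 and 1153 of all genes were under an unadjusted p of 0.05; DESeq2 called 23 genes and limma 2, none of the 5 among them. The folds of KO over WT on chow were positive for all 5, at 0.49 ± 0.32 for Fads1 (95% interval -0.19 to 1.18), 0.55 ± 0.36 for Fads2 (-0.21 to 1.31), 0.20 ± 0.14 for Elovl1 (-0.10 to 0.50), 0.30 ± 0.22 for Elovl2 (-0.16 to 0.76) and 0.29 ± 0.34 for Elovl5 (-0.44 to 1.01). Their adjusted p-values in edgeR were 0.539 to 0.723. Tspo itself had a fold of -1.23 ± 0.49 on chow and was not called either (adjusted p = 0.460 by edgeR). Elovl1 turned to -0.04 without scaling factors. All 5 overlapped between genotypes on chow, where 4.34% of all genes had no overlap (1.75% higher in KO and 2.59% lower). KO on chow contains the library with Tspo at a WT level, and without it Fads1 stood at 0.70 and Fads2 at 0.78, still not called.

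On MCD 0 of the 5 genes and 0% of all genes passed the test between KO and WT. Tspo itself was not called, at -2.07 ± 0.45 with no overlap between genotypes (adjusted p = 0.99991 by edgeR). The lack of a call between genotypes therefore does not show that a gene did not differ. By edgeR 0 of the 5 and 81 of all genes were under an unadjusted p of 0.05, and DESeq2 and limma also called 0. Fads1 differed by 0.05 ± 0.32 (95% interval -0.63 to 0.73), Fads2 by 0.06 ± 0.36 (-0.70 to 0.81) and Elovl5 by -0.01 ± 0.34 (-0.74 to 0.71). Elovl2 differed by 0.26 ± 0.22 (-0.20 to 0.72) and Elovl1 by 0.10 ± 0.14 (-0.19 to 0.40). Without KO on MCD number 4, Fads1 stood at -0.28 and Fads2 at -0.34, and without WT on MCD number 2 at -0.15 and -0.16, so the sign of both rested on single libraries. Between genotypes on MCD 0.797% of all genes had no overlap, and none of the 5 was among them.

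The difference of the diet effects, KO minus WT, was -0.44 ± 0.46 for Fads1 (95% interval -1.41 to 0.53), -0.49 ± 0.51 for Fads2 (-1.56 to 0.58) and -0.30 ± 0.48 for Elovl5 (-1.32 to 0.72). It was -0.10 ± 0.20 for Elovl1 (-0.52 to 0.32) and -0.04 ± 0.31 for Elovl2 (-0.69 to 0.61). By edgeR 0 of the 5 and 0% of all genes passed, with 0 of the 5 and 330 of all genes under an unadjusted p of 0.05. DESeq2 called 1 gene, which was LOC500124, and limma 0. The diet folds in KO and WT were therefore not shown to differ for any of the 5. The call of Elovl1 in WT and not in KO does not by itself show a difference between genotypes, and the intervals do not exclude one.

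**Figure D3:**
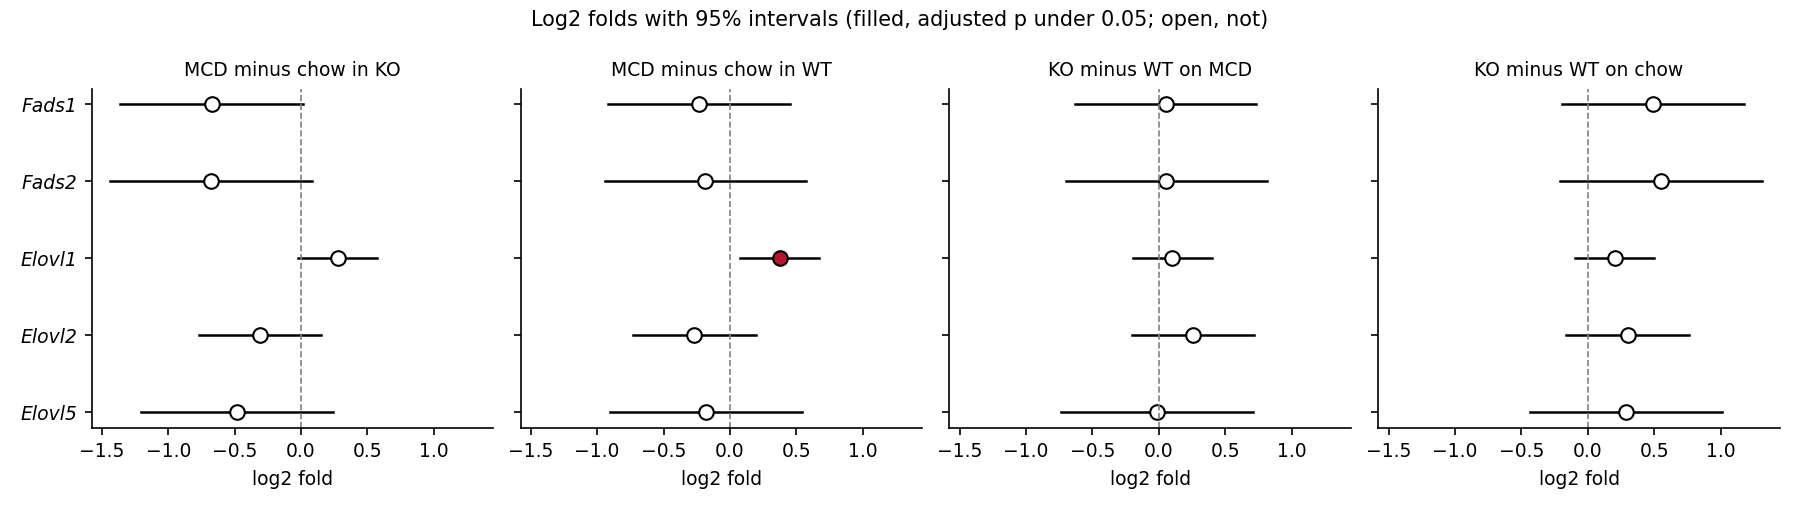
Log2 folds (points) with 95% intervals (lines) of the 5 genes for MCD over chow in KO and in WT and for KO over WT on MCD and on chow. The filled point, Elovl1 in WT, is the 1 value with an adjusted p under 0.05, and every other interval holds 0.

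The 5 genes were also compared with one another across libraries. Each group's mean was subtracted first, so that differences between the labelled groups could not carry the relation. The 2 KO libraries with high Tspo were centred with their labelled groups, so genotype is removed only as far as the labels hold. No pair was tested without them. Fads1 and Fads2 varied together, with r = 0.986 (permutation p = 7e-05, adjusted p = 0.0007) and rho = 0.974 (adjusted p = 0.0006) over 16 libraries. Leaving out the 2 libraries whose Fads1 level lay farthest from its median gave r = 0.983. They were KO on chow number 3 and WT on MCD number 2, picked before group means were subtracted. KO on MCD number 4 and KO on chow number 4 stayed in, and the relation without them was not tested. The ratio of Fads1 to Fads2 counts was not corrected for length and so compared only between libraries. It was 1.14 to 1.35 in KO on MCD, 1.13 to 1.35 in WT on MCD, 1.15 to 1.39 in KO on chow and 1.16 to 1.33 in WT on chow. While each desaturase varied over 3.66 times or more, their ratio kept to the same narrow range in all 4 groups.

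Elovl5 followed the desaturases less closely, with r = 0.684 against Fads1 (permutation p = 0.00392, adjusted p = 0.0196; rho = 0.741, p = 0.00335, adjusted p = 0.0117) and r = 0.658 against Fads2 (permutation p = 0.00888, adjusted p = 0.0296; rho = 0.727, p = 0.0035, adjusted p = 0.0117). Elovl2 did so too, with r = 0.660 against Fads1 (permutation p = 0.0178, adjusted p = 0.0357; rho = 0.662, p = 0.0217, adjusted p = 0.0433) and r = 0.668 against Fads2 (permutation p = 0.0138, adjusted p = 0.0344; rho = 0.644, p = 0.0187, adjusted p = 0.0433). Without the 2 libraries farthest from the median of the desaturase, picked in the same way, these 4 values of r were 0.730, 0.697, 0.729 and 0.661. KO on MCD number 4 and KO on chow number 4 again stayed in. Elovl1 had r of 0.026 to 0.174 with the other 4 genes (adjusted permutation p of 0.73 or more), and Elovl2 and Elovl5 had r = 0.307 (permutation p = 0.358, adjusted p = 0.596). In all 10 pairs were compared, two-sided, with 100000 permutations within groups. The libraries share depth and RNA quality across genes, and their part in these relations was not tested.

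**Figure D4:**
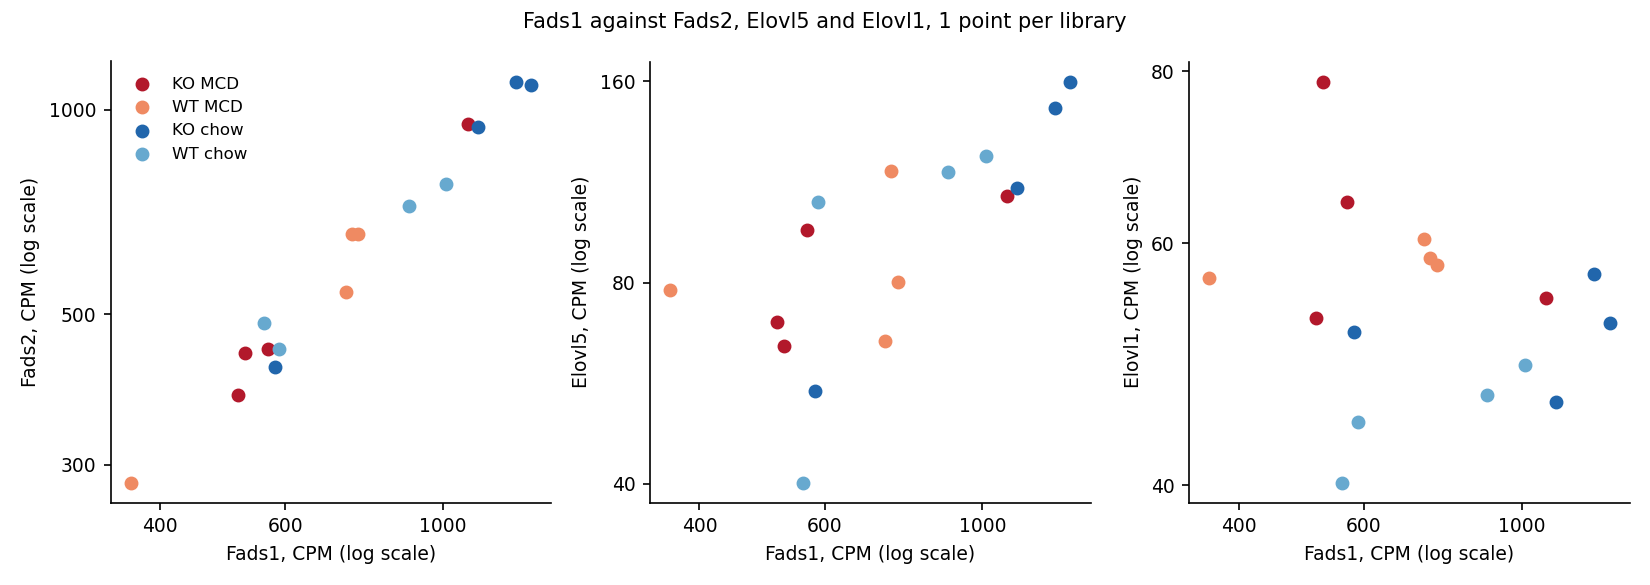
CPM of Fads2, Elovl5 and Elovl1 against CPM of Fads1 on log axes, with 1 point per library coloured by group. The Fads2 points follow 1 line through all 4 groups, the Elovl5 points scatter around a rising trend, and the Elovl1 points show none.

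Among all genes tested, those whose log2 CPM over the 16 libraries was most like Fads1 were Fads2 (r = 0.988), Cyp8b1 (r = 0.905), a sterol hydroxylase of bile acid synthesis, and Pank1 (r = 0.882), a pantothenate kinase of coenzyme A synthesis. For Fads2 they were Fads1, Cyp8b1 (r = 0.909) and Pank1 (r = 0.876). Elovl5 was most like Cpn1 (r = 0.876), which encodes the catalytic subunit of carboxypeptidase N, Ttc13 (r = 0.861) and Ppap2b (r = 0.852), a lipid phosphate phosphatase. Elovl2 was most like Idh3B (r = 0.763), a subunit of mitochondrial isocitrate dehydrogenase, Cyp8b1 (r = 0.754) and Hddc3 (r = 0.741). Elovl1 was most like Dolk (r = 0.887), the dolichol kinase, Cd300a (r = 0.879), an inhibitory receptor of immune cells, and Snn (r = 0.872). With group means subtracted, Cyp8b1 was still among the 3 nearest to Fads1 (r = 0.935) and Fads2 (r = 0.955). No gene of the lists for Elovl1, Elovl2 and Elovl5 stayed among the nearest 3. These values of r describe the libraries, carry no test and are the highest among all genes tested.

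Genes that work beside the 5 were described in lists. Of the other desaturases and elongases 8 were in the table and 5 were tested, and in each genotype 2 rose and 1 fell (background in KO 21.9% upward and 18.5% downward, in WT 18.2% and 15.9%). Scd1 of the table, which RefSeq now calls Scd and which makes oleic from stearic acid, was at 157 ± 41.2 CPM in KO on MCD against 5729 ± 1645 in KO on chow, a log2 fold of -5.19 ± 0.44 (adjusted p = 1.2e-06). In WT it was at 231 ± 112.5 CPM on MCD against 2014 ± 825 on chow, a log2 fold of -3.12 ± 0.40 (adjusted p = 4.9e-05). Scd of the table, now Scd2, rose by 1.43 ± 0.26 in KO and 1.16 ± 0.26 in WT. Fads3, the neighbour of Fads2 with an assigned role in sphingoid base desaturation, rose by 1.13 ± 0.43 in KO and 1.17 ± 0.43 in WT. Its levels were low, at 5.32 ± 1.82 CPM in KO on MCD against 2.47 ± 2.12 in KO on chow, and 5.18 ± 1.39 CPM in WT on MCD against 2.28 ± 0.859 in WT on chow. Without the libraries in doubt (the 3 that stood apart, the 2 with high Tspo or the 4 numbered 4) 2 of the 5 fell in KO. The median fold of the 5 was -0.42 in KO and 0.26 in WT, against 0.04 and -0.0022 over all genes.

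The elongases share 3 further steps of the elongation cycle, a ketoreductase, a dehydratase and an enoyl reductase. Of 5 such genes tested, 4 fell and 0 rose in KO, and 3 fell and 1 rose in WT, beside 18.5% of all genes downward and 21.9% upward in KO and 15.9% and 18.2% in WT. The list medians were -0.59 in KO and -0.39 in WT, against 0.04 and -0.0022 over all genes. The ketoreductase Hsd17b12 was at 59.7 ± 5.70 CPM in KO on MCD against 90.1 ± 6.46 in KO on chow (log2 fold -0.59 ± 0.13, adjusted p = 0.00242), and at 63.8 ± 7.72 CPM in WT on MCD against 83.7 ± 6.84 in WT on chow (-0.39 ± 0.13, adjusted p = 0.0299). The enoyl reductase Tecr was at 141 ± 21.8 CPM against 242 ± 30.5 in KO (-0.78 ± 0.18) and 159 ± 25.1 against 279.7 ± 49.8 in WT (-0.81 ± 0.18), MCD against chow. Of the dehydratases, Ptpla (now Hacd1) fell by 1.35 in KO and 1.19 in WT, Ptplad1 (now Hacd3) fell by 0.54 in KO (-0.32 and not called in WT), and Ptplad2 (now Hacd4) rose by 2.59 in WT, to 1.32 ± 0.733 CPM on MCD against 0.227 ± 0.213 on chow (1.06 and not called in KO). Without scaling factors Hsd17b12 turned positive in both genotypes and Ptplad1 in KO. Without the 4 libraries numbered 4, 1 gene in place of 3 fell in WT.

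Desaturases draw electrons from cytochrome b5 and its reductase. Of 5 such genes tested 2 fell and 0 rose in each genotype, beside 18.5% of all genes downward in KO and 15.9% in WT. The list median was -0.25 in KO and -0.27 in WT, against 0.04 and -0.0022 over all genes. Cyb5a was at 281 ± 19.1 CPM in KO on MCD against 552 ± 47.3 in KO on chow (log2 fold -0.97 ± 0.15, adjusted p = 0.00021), and at 267 ± 31.1 CPM in WT on MCD against 679.9 ± 99.7 in WT on chow (-1.35 ± 0.15, adjusted p = 1.8e-05). Cyb5r3, the reductase, fell by 0.92 ± 0.17 in KO and 1.07 ± 0.17 in WT. Both genes were lower on MCD in both genotypes and kept their sign under each scaling.

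Docosahexaenoic acid is finished by chain shortening in peroxisomes. Of 12 genes of peroxisomal import and oxidation, all tested, 7 fell and 0 rose in each genotype, beside 18.5% of all genes downward in KO and 15.9% in WT. The list medians were -0.54 in KO and -0.48 in WT, against 0.04 and -0.0022 over all genes. Scp2, a thiolase and sterol carrier, was at 598 ± 73.9 CPM in KO on MCD against 1641 ± 63.6 in KO on chow (log2 fold -1.46 ± 0.16, adjusted p = 9.2e-06), and at 561 ± 80.7 CPM in WT on MCD against 1432 ± 79.6 in WT on chow (-1.35 ± 0.16, adjusted p = 1.8e-05). The thiolase Acaa1a fell by 0.87 in KO and 0.66 in WT, the importer Abcd3 by 0.86 and 0.66, and the reductase Decr2 by 0.81 and 1.07. Without scaling factors 2 of the 7 turned positive in each genotype (Eci2 and Pex5 in KO, Eci2 and Hsd17b4 in WT, named after their values were seen). Without the libraries numbered 4, 4 genes fell in WT.

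Of 12 regulators tested, 1 rose and 2 fell in KO, and 2 rose and 3 fell in WT, beside 21.9% of all genes upward and 18.5% downward in KO and 18.2% and 15.9% in WT. The list medians were -0.47 in KO and -0.36 in WT. Ppara, the fatty acid receptor, was at 36.8 ± 12.6 CPM in KO on MCD against 6.54 ± 1.62 in KO on chow (log2 fold 2.49 ± 0.27, adjusted p = 1.0e-05), and at 36.2 ± 6.04 CPM in WT on MCD against 8.5995 ± 1.96 in WT on chow (2.08 ± 0.26, adjusted p = 4.5e-05). Srebf1 fell by 1.43 ± 0.37 in KO (adjusted p = 0.00658) and was at -0.97 ± 0.37 in WT, just short of the threshold (adjusted p = 0.0509). Nr1h3, the liver X receptor alpha, fell by 0.86 ± 0.33 in KO (adjusted p = 0.0457) and was at -0.44 ± 0.33 in WT (adjusted p = 0.308). Its diets overlapped in KO, with 137 to 402 CPM on chow (median 161) and 97.9 to 172 on MCD. Srebf1 in KO had 425.4 to 1025.5 CPM on chow (median 449) and 156 to 313 on MCD, without overlap. In WT the sterol factor Srebf2 rose by 0.72 ± 0.19, Insig2, which retains its precursor in the endoplasmic reticulum, fell by 1.12 ± 0.40 and Pparg fell by 1.10 ± 0.37. Their folds in KO, not called, were 0.44 ± 0.19 for Srebf2, -0.67 ± 0.39 for Insig2 and -0.47 ± 0.37 for Pparg. For Insig2 the diets overlapped in WT, with 43.9 to 232 CPM on chow (median 68.5) and 38.9 to 62.5 on MCD. The third that fell in WT was Mlxipl, the carbohydrate response factor, named after its values were seen (-1.19, against -0.47 and not called in KO). Its diets also overlapped in WT. Without the 3 libraries that stood apart 3 regulators rose in KO, and without the 2 with high Tspo 5 fell in WT. The lists were drawn up with earlier results of these data known, so their counts describe and carry no test of their own.

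**Figure D5:**
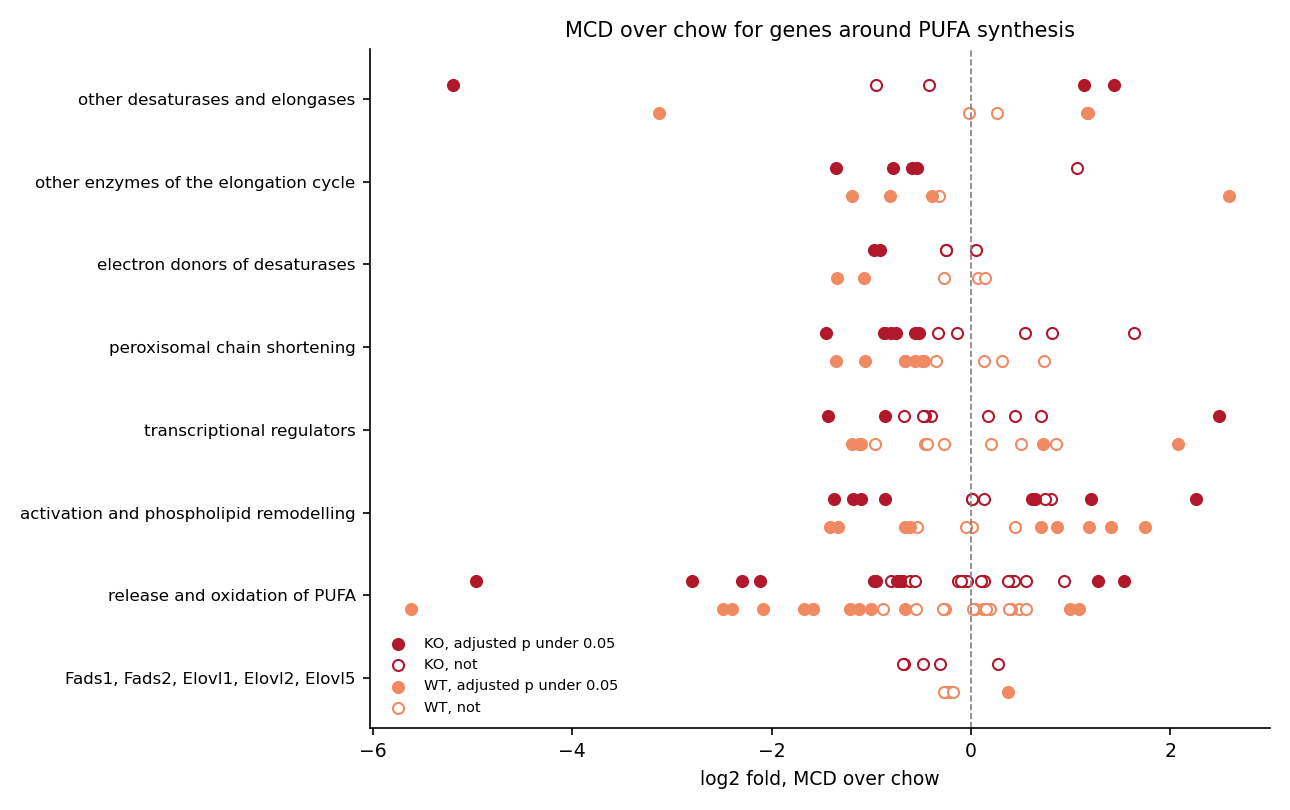
Log2 folds of MCD over chow for each tested gene of 7 lists around polyunsaturated fatty acid synthesis and for the 5 genes (bottom), in KO (dark red) and WT (orange), filled where the adjusted p was under 0.05. Acaa1b in WT is not drawn because WT on chow was at 0, and the 5 genes lie nearer to 0 than many genes of the lists.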

How the data were processed

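Per the labels, libraries from 16 rat liver samples were made with a Kapa kit for stranded mRNA. The authors deposited a table of RSEM expected counts for 17168 genes and a second table labelled as TMM-normalized values, treated as a signal scaled by the authors. Every value above 0 in the second table (202017 of 202017) matched the first after scaling within 0.51 count. The submitters' processing notes name Bowtie2 2.1.0, RSEM 1.2.15 and the build rn6, without their roles. The sources used here give neither the annotation nor whether counting used strand. Of the expected counts 88.914% were whole numbers, and all were rounded before testing.

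Tests used edgeR 4.0.16 in R 4.3.3 (TMM scaling, filterByExpr over the 4 groups, robust quasi-likelihood fit with 1 mean per group), with Benjamini-Hochberg adjustment over 11162 genes and a threshold of 0.05. The SE is the log2 fold divided by the square root of the F statistic, and intervals are 95% intervals. Intervals and SDs describe the spread between libraries. DESeq2 1.42.0 and limma 3.58.1, on log2 of the deposited values plus 1, were alternatives, beside other scalings, no filter, a replicate block and left-out libraries. Scripts were tested on simulated data. CPM values use TMM library sizes. Promoter windows come from RefSeq (GRCr8), where 5 of 5 symbols matched, and were not placed on rn6. The 5 genes and all lists were chosen with earlier results of these data known. In each list the text names up to 4 called genes per genotype with the lowest p (or 2 where none is called), and any others as named after their values were seen. For likeness it names the 3 genes with the highest r.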

Additional observations from a re-analysis of the deposited data

Results flagged for a closer look

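In 3 of 20 sets of 4 libraries (5 genes in 4 groups) 1 library lay far from the other 3 by Dixon's test at 95%, which chance alone gives in about 1 set in 20. Fads1 was at 1083 CPM in KO on MCD number 4, against 515 to 567 in the other 3 libraries of that group. Fads2 was at 954 CPM in the same library, against 380.1 to 445 in the other 3. Fads1 was at 364 CPM in WT on MCD number 2, against 729.8 to 760.2 in the other 3. The 2 desaturases vary together, so the pair of values in KO on MCD number 4 is not independent. That library had a second principal component score of 1.61 and was not among the 3 that stood apart.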

How the results depend on the processing

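Of 510 values for single genes under the alternatives, 458 kept their direction and their side of the threshold, 32 changed sign, 8 became called and 12 lost a call; the cause was not tested. For the diet in WT, 0 of the 5 genes were called with RLE factors, with no filter, with a replicate block (Elovl1 0.38, adjusted p = 0.0597 by edgeR), without the libraries numbered 4 and with any 1 library left out (0 to 0). For the diet in KO, 1 was called with upper quartile or no scaling factors (Elovl1), 2 without the libraries numbered 4 and 0 to 2 with 1 library left out. The replicate numbers were not shown to pair the samples. Same-numbered libraries correlated at -0.38 to 0.51, with 7 of 24 pairs over 0.1, and 4 of 16 libraries correlated best with their own number. The highest value, 0.51, was between the chow libraries numbered 4. With so few libraries these values cannot exclude a batch shared by 1 number. In the sample order those numbered 4 come last, and whether they form a batch was not tested. The block called 3655 genes for the diet in WT and 4238 in KO. Genes called were 6852 for the diet in KO without scaling factors. For KO over WT on chow they were 2 without scaling factors, 23 by DESeq2, 2 by limma, 0 in the 2 groups alone, 516 without the 3 libraries that stood apart, 4 without the 2 with high Tspo, 9 without those numbered 4 and 0 to 17 with 1 left out. On MCD they were 1 (Tspo) without the 3 or the 2 libraries and 0 to 1 with 1 left out. For the difference of the diet effects they were 1 by DESeq2, 20 without the 3 libraries, 1 without the 2 and 1 without those numbered 4. Signs turned without scaling factors for the diet in KO (Fads1 0.037, Fads2 0.031, Elovl2 0.42, Elovl5 0.20) and WT (Fads1 0.27, Fads2 0.31, Elovl2 0.24, Elovl5 0.31), for Elovl1 on chow (-0.038) and for the difference (Elovl1 0.080, Elovl2 0.19; Elovl2 0.014 with upper quartile factors). For KO over WT on MCD, Elovl1 was -0.025 and Elovl5 0.10 without the 3 or the 2 libraries, and Fads1 -0.21 and Fads2 -0.33 without those numbered 4. With 1 library left out, Fads2 in WT ranged from -0.31 to 0.027 for the diet. For KO over WT on MCD, Fads1 ranged from -0.28 to 0.16, Fads2 from -0.34 to 0.20, Elovl1 from -0.025 to 0.18 and Elovl5 from -0.15 to 0.18. Elovl2 ranged from -0.17 to 0.12 for the difference. Counts of lists without libraries were chosen after seeing the data.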

Other observations

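Genes listed for fatty acid activation and for phospholipid handling, Pemt among them, were called in both directions on the MCD diet. Of 13 tested, 4 rose and 4 fell in KO and 5 rose and 4 fell in WT. Of all genes 21.9% rose and 18.5% fell in KO, and 18.2% rose and 15.9% fell in WT. The list medians were 0.13 in KO and 0.01 in WT on the log2 scale, against 0.04 and -0.0022 over all genes. The acyl-CoA synthetase Acsl1 was at 869.6 ± 234 CPM in KO on MCD against 1975 ± 87.2 in KO on chow (log2 fold -1.18 ± 0.22), and at 769.96 ± 208 CPM in WT on MCD against 1940.2 ± 193 in WT on chow (-1.33 ± 0.22). Acsl4, which prefers arachidonic acid, fell by 1.37 in KO and 1.41 in WT, and Acsl5 fell by 1.10 in KO and 0.61 in WT. Mboat1, an acyltransferase for lysophospholipids, rose by 2.25 ± 0.26 in KO and 1.74 ± 0.25 in WT. Pemt, which makes phosphatidylcholine from phosphatidylethanolamine, fell by 0.86 in KO and 0.67 in WT.

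Of 26 genes tested that release or oxidize polyunsaturated acids, 2 rose and 8 fell in KO, and 2 rose and 10 fell in WT, beside the same shares of all genes. The list medians were -0.11 in KO and -0.27 in WT. The leukotriene C4 synthase Ltc4s was at 0.963 ± 0.788 CPM in KO on MCD against 30.2 ± 13.8 in KO on chow (log2 fold -4.96 ± 0.59), and at 0.931 ± 0.593 CPM in WT on MCD against 45.7 ± 20.0 in WT on chow (-5.62 ± 0.60). The arachidonic acid epoxygenase Cyp2c23 fell by 2.11 in KO and 2.40 in WT, and Cyp4f4 by 0.98 and 1.59. Cyp4f1 fell by 0.72 in KO and 1.00 in WT. The phospholipase Pla2g12a rose by 1.53 ± 0.23 in KO and 1.00 ± 0.23 in WT. Without the 3 libraries that stood apart, 4 genes rose in WT. Macrophage, red cell and hepatocyte marker sums were also lower on MCD in both genotypes. By gene, 1 of 6 macrophage markers rose and 2 fell, 3 of 3 red cell markers fell and 4 of 9 hepatocyte markers fell in each genotype. Their part in these values was not tested.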
